A study of Mus musculus with 6 samples.

Results

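The TNF superfamily was followed in CT26 tumors of mice treated with H89 or with NaCl. Its members were taken by symbol: every gene whose symbol starts with Tnfsf or Tnfrsf and a number, and Tnf, Lta and Ltb. This gave 34 of the 23557 genes measured, 14 ligands and 20 receptors. CT26 is a transplantable colon carcinoma line of BALB/c mice, and 500000 of its cells had been placed under the skin of the flank of 7-week-old female BALB/c mice. Both groups of 3 mice carried the same tumor and were injected intraperitoneally 2 times per week from day 6, the NaCl group with NaCl alone and the H89 group with H89 at 10 mg/kg in NaCl. H89 is a kinase inhibitor used against protein kinase A, and it also inhibits other kinases. Tumors were taken on day 14, and total RNA of the whole tumor was sequenced, so that transcripts of tumor cells, immune cells and stroma were measured together in a single transplanted line under the skin, away from the colon.

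Library totals lay between 27067349 and 31958793 estimated counts. H89 tumor 3 stood apart from the other H89 tumors, with a chi-square per degree of freedom over genes of 89.9 and 71.3 against them, where the other pairs within a group gave 23.6 to 37.1. Of the markers of an epithelial carcinoma, Krt18 was found at 7.76 to 23.6 counts per 1000000 (CPM), whereas Epcam, Krt8 and Krt19 stayed at or below 2.53 CPM in every tumor. Macrophage markers summed to 1190 to 1970 CPM in NaCl tumors and 1590 to 1870 CPM in H89 tumors. The 9 T cell markers summed to 16.7 to 37.5 CPM in NaCl tumors and 32.2 to 81.2 CPM in H89 tumors.

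Ligands of this family are mostly membrane proteins that assemble as trimers, and some are cut from the cell surface to act at a distance. Their receptors gather adaptor proteins of the TRAF family and switch on NF-kB, or, where they carry a death domain, can start apoptosis through FADD and caspase-8. In tumors the family is known for the inflammatory cytokine TNF, for TRAIL, which kills sensitive tumor cells, and for receptors such as OX40, GITR and CD137 that costimulate T cells. Other branches keep B cells alive (BAFF and APRIL), build lymphoid tissue (the lymphotoxins) or act in bone (RANK and osteoprotegerin).

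The promoters of the 4 members with the smallest p in the comparison of H89 with NaCl are shown, since the response element of cAMP signaling and 3 motifs of inflammatory signaling could be looked for in them. They are RefSeq windows on GRCm38.p6 of 250 bases before and 50 after a transcript start, read 5′ to 3′ on the gene's strand, with each motif found in capitals.
Tnfrsf12a, chr17:23677400-23677699, minus strand: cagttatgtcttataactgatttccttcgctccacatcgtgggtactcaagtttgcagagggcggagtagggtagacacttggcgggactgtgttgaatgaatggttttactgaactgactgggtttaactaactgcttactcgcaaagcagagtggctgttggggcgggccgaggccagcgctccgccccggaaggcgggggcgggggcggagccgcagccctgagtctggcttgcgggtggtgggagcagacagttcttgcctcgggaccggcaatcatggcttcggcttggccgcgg
Tnfrsf14, chr4:154928028-154928327, minus strand: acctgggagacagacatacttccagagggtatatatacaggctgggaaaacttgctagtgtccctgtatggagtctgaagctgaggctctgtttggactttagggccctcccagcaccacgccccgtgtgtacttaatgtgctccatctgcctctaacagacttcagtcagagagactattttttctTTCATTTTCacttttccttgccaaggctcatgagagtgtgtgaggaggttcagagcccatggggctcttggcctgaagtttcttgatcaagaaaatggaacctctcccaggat
Tnfsf10, chr3:27316827-27317126, plus strand: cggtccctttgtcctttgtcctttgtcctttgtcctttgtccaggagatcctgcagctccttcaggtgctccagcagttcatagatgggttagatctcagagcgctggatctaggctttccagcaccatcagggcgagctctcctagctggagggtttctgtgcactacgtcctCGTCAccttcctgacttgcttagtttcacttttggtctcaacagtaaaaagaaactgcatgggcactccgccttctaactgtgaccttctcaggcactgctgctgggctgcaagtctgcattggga
Tnfrsf11a, chr1:105780473-105780772, plus strand: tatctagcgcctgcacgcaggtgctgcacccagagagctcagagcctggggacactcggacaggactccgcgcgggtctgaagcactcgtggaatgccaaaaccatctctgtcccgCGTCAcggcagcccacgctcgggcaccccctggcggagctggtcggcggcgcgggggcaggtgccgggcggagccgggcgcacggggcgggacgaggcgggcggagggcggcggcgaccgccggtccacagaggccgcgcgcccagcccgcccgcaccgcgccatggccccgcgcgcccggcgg
Each of 4 motifs, none of them contained in another, was searched on both strands: TGACG, the core of the cAMP response element bound by CREB factors, TGANTCA for AP-1, GGANTTTCC for NF-kB and GAAANNGAA for the interferon-stimulated response element. Tnfsf10 and Tnfrsf11a each held 1 TGACG (written CGTCA on the strand shown), Tnfrsf14 held 1 interferon-type element, and the window of Tnfrsf12a held none of these letters. The window of Tnfrsf14 lies wholly inside the gene as annotated in GENCODE M21, whose upstream end on the minus strand is at 154928563. Of the 32851 windows of all genes, 20.8% held TGACG, 7.81% the AP-1 element, 1.25% the NF-kB element and 8.56% the interferon-type element. Among the 31 windows found for 27 members, these numbers were 4, 6, 1 and 6. A match is a description of the letters and not of binding.

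Of the 34 members, 28 had a mean of at least 0.5 CPM over the 6 tumors and were tested, 10 ligands and 18 receptors, in an edgeR quasi-likelihood fit over all 13118 genes that passed this filter. A single member, Tnfrsf12a, passed a Benjamini-Hochberg adjusted p of 0.05, and it fell; over all genes 1.59% passed. At an unadjusted p of 0.05, 8 members were called, 5 higher and 3 lower in H89 tumors. The share of all genes called in this way was 25.0%, with 13.1% higher and 11.9% lower, so that the share of members called, 28.6%, was close to the background. Higher were the receptors Tnfrsf14, Tnfrsf11a and Tnfrsf4 and the ligands Tnfsf10 and Tnfsf13b, and lower were the receptors Tnfrsf12a, Tnfrsf23 and Tnfrsf10b. Because whole tumors were measured, fewer cells of a type and less RNA per cell cannot be told apart in any of these values. Both ligands called were higher, whereas 3 receptors were higher and 3 lower. The median log2 fold change was 0.35 over the 10 ligands, 0.08 over the 18 receptors and 0.004 over all genes tested. The median of ligands was 0.05 without H89 tumor 3, 0.16 without NaCl tumor 3 and 0.00 after quantile normalization. With scaling to library totals alone, 8 members were called higher and 1 lower, while over all genes 2298 were called higher and 905 lower, against 1719 and 1566 with TMM scaling. Without H89 tumor 3, the library that stood apart, 3 members were called higher (Tnfrsf14, Tnfrsf11a and Tnfsf10) and 3 lower (Tnfrsf12a, Tnfrsf23 and Tnfrsf26), with 1391 genes higher and 1231 lower over all genes.

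**Figure D1:**
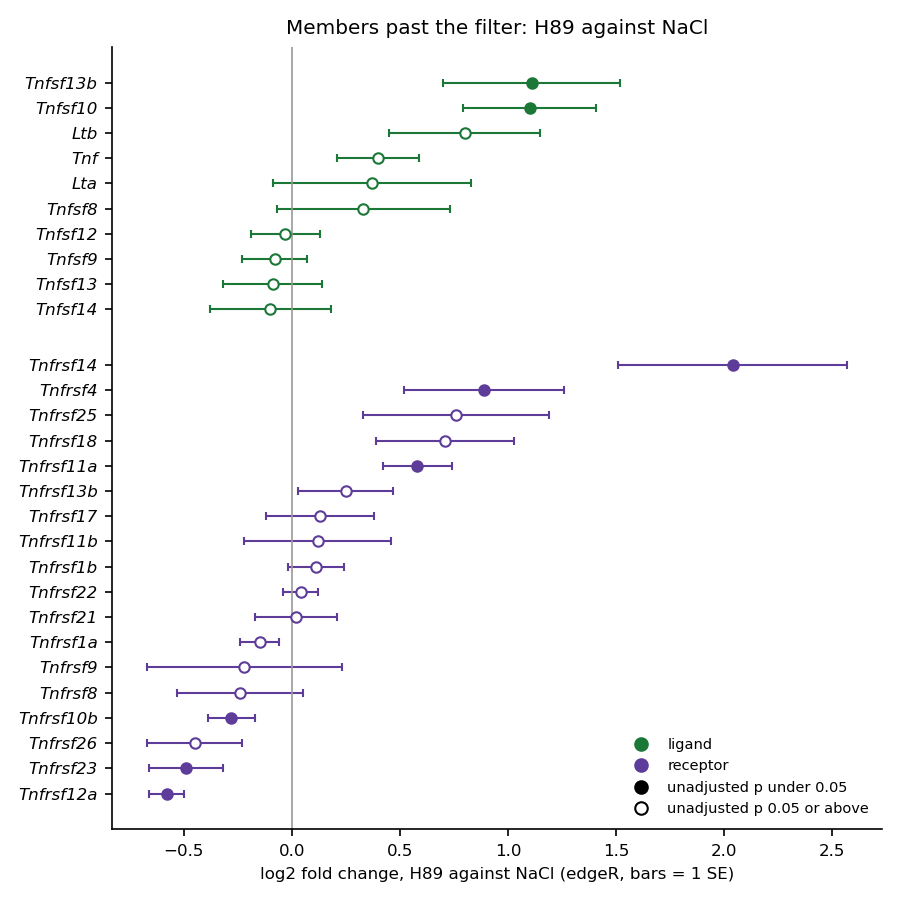
Log2 fold change of H89 against NaCl (x axis) for the 10 ligands (green) and 18 receptors (purple) past the filter, with bars of 1 SE. Filled points have an unadjusted p under 0.05, and they lie between -0.58 for Tnfrsf12a and 2.04 for Tnfrsf14.

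Among the 28 members tested, the 3 values of 1 group lay apart from those of the other for 7. All H89 tumors were above all NaCl tumors for Tnfrsf14, Tnfrsf11a, Tnfsf10 and Tnfsf13b, against 15.2% of all genes, and all were below for Tnfrsf12a, Tnfrsf10b and Tnfrsf26, against 15.5% of all genes. With 3 tumors against 3, an exact two-sided permutation test cannot give a p below 0.1. It gives 0.1 wherever the groups lie fully apart, so for these 7 members, picked in that way, it adds nothing. When CPM were scaled to library totals alone, Tnfrsf18 joined the 4 members above and Tnfrsf26 left the members below, while over all genes the split moved from 1995 above and 2030 below to 2681 above and 1312 below.

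**Figure D2:**
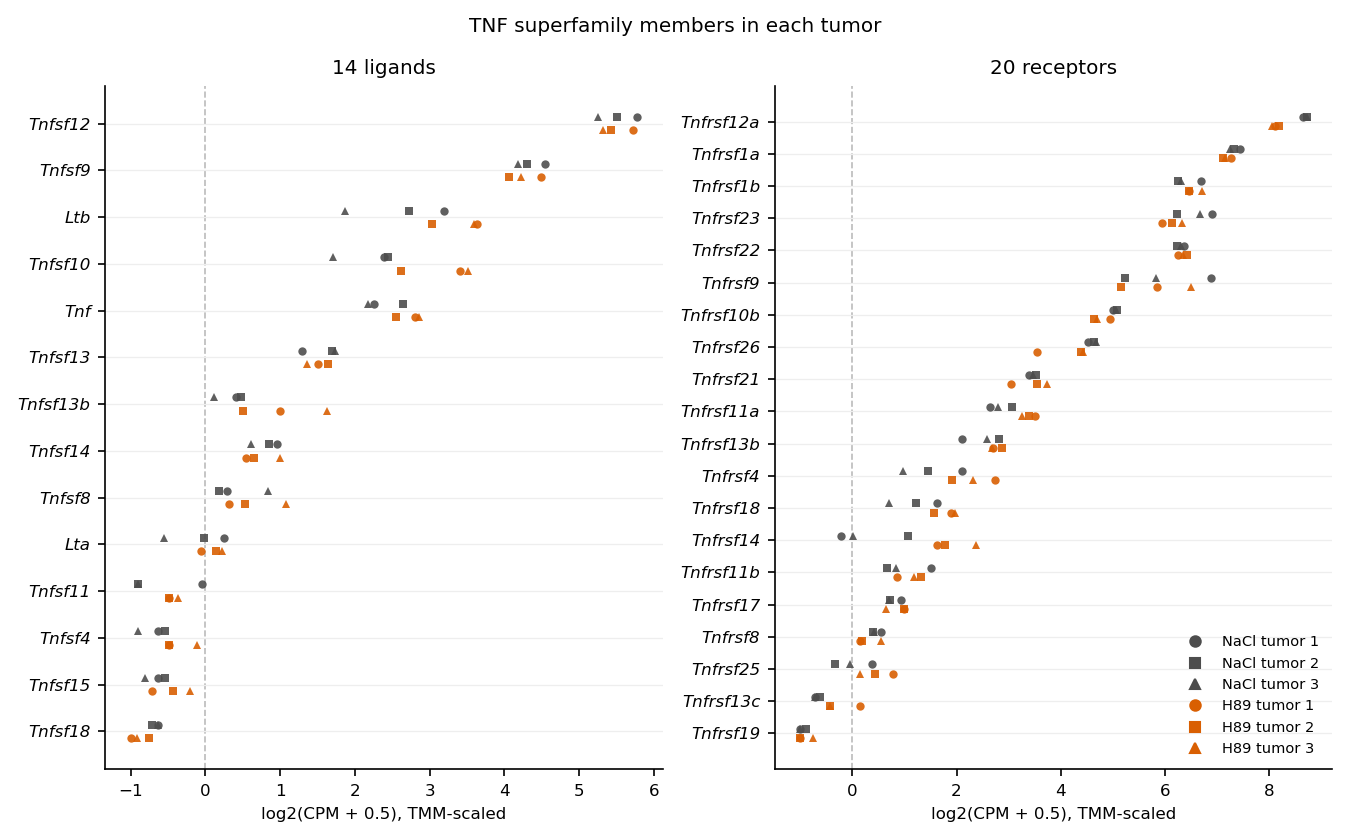
Level of each of the 34 members in each tumor as log2(CPM + 0.5), TMM-scaled, for 14 ligands (left) and 20 receptors (right), ordered by mean level, with NaCl tumors in grey, H89 tumors in orange and symbols for tumors 1 to 3. The dashed line marks 0.5 CPM, and the 6 members whose mean is below it are at the bottom of each panel.

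Levels of different genes can be set side by side only per length, here as CPM per kilobase of the longest coding transcript. By this measure Tnfrsf12a led the receptors at 351 CPM per kilobase, followed by Tnfrsf1a at 70.9 and Tnfrsf23 at 57.1. Tnfsf12, the ligand of Tnfrsf12a, led the ligands at 31.5 CPM per kilobase, followed by Tnfsf9 at 15.0 and Ltb at 7.06. The most abundant ligand and the most abundant receptor were thus partners.

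In the TWEAK and RANK branches, 4 of 6 members were tested and 2 of these 4 were called, against 25.0% of all genes. The receptor Tnfrsf12a fell while the receptor Tnfrsf11a was called higher. A difference of this share from that of all genes was not tested. Tnfrsf12a (Fn14), the receptor of TWEAK and a gene known to be induced by growth factors and injury, lies on chromosome 17 from 23675445 to 23677468 on the minus strand. It was measured at 400.6, 419.4 and 419.9 CPM in NaCl tumors and at 276.5, 289.9 and 265.6 CPM in H89 tumors. The 3 values within each group lay close together and the groups were far apart. Its log2 fold change was -0.58 (SE 0.08), with an edgeR p of 9.4e-05 and an adjusted p of 0.0407. The value stayed between -0.61 and -0.55 when any 1 tumor was left out. The adjusted p then rose to between 0.0667 and 0.142, so that the call was lost whichever of the 6 tumors was left out. Over all genes, only 0 to 12 then passed the adjusted p, against 208 with all 6 tumors, so this loss was not particular to Tnfrsf12a. In the same tumors, the epithelial carcinoma markers summed to 14.6 to 26.2 CPM in NaCl tumors and 11.0 to 15.3 CPM in H89 tumors, with Krt18 lower at a log2 fold change of -1.04 (SE 0.23), Krt8, Krt19 and Cdh1 at 1.03, 2.56 and 0.05, and Epcam below the filter. Their part in the result was not tested.

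Its ligand Tnfsf12 (TWEAK) was not called. It was at 54.4, 45.0 and 37.8 CPM in NaCl tumors and at 52.3, 42.3 and 39.6 CPM in H89 tumors, so that the groups overlapped over most of their range. The log2 fold change was -0.03 (SE 0.16, adjusted p = 0.923 in edgeR). The annotation places the joined transcript unit Tnfsfm13 over exons of Tnfsf12 and Tnfsf13 on the same strand, and the counts of both could be split with it.

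Tnfrsf11a (RANK), the receptor that drives the formation of osteoclasts and is also found on dendritic cells, lies on chromosome 1 from 105780718 to 105847981 on the plus strand. Its transcript was found at 5.72, 7.84 and 6.47 CPM in NaCl tumors and at 10.9, 9.95 and 9.04 CPM in H89 tumors. Each H89 tumor was above each NaCl tumor, with a log2 fold change of 0.58 (SE 0.16, adjusted p = 0.0952 in edgeR). Its ligand Tnfsf11 (RANKL) was below the filter, with 1 to 13 counts per tumor, and the decoy receptor of that ligand, Tnfrsf11b (osteoprotegerin), was at 1.08 to 2.34 CPM over the 6 tumors with a log2 fold change of 0.12 (SE 0.34). Tnfrsf19 (TROY) had 0 to 3 counts per tumor. The value of Tnfrsf11a stayed between 0.48 and 0.70 on the log2 scale when any 1 tumor was left out.

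In the TRAIL branch, counted here with Tnfrsf21, 3 of 6 members tested were called, against 25.0% of all genes. The ligand was called higher and 2 of the receptors lower. Whether this share differs from that of all genes was not tested. Tnfsf10 (TRAIL), the ligand that triggers apoptosis through death receptors and is known to be induced by interferons, lies on chromosome 3 from 27317028 to 27342427 on the plus strand. It was measured at 4.75, 4.93 and 2.78 CPM in NaCl tumors and at 10.1, 5.63 and 11.0 CPM in H89 tumors. H89 tumors 1 and 3 were far above the NaCl tumors and H89 tumor 2 only just above the highest of them. The log2 fold change was 1.10 (SE 0.31, adjusted p = 0.0942 in edgeR). The unadjusted p stayed at or below 0.0278 whichever tumor was left out, with values from 0.88 without NaCl tumor 3 to 1.34 without H89 tumor 2.

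Tnfrsf10b, the only death receptor for TRAIL in the mouse, lies on chromosome 14 from 69767472 to 69784411 on the plus strand. Its level was 31.3, 33.1 and 32.8 CPM in NaCl tumors and 30.1, 24.2 and 25.5 CPM in H89 tumors. All H89 tumors were below the NaCl tumors, H89 tumor 1 by a small step. The log2 fold change was -0.28 (SE 0.11, adjusted p = 0.152 in edgeR), and its unadjusted call was lost without NaCl tumor 2, NaCl tumor 3, H89 tumor 2 or H89 tumor 3, with values from -0.38 to -0.22, and with total count scaling.

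Tnfrsf23, Tnfrsf22 and Tnfrsf26 are receptors without a death domain that lie side by side on chromosome 7, and the products of Tnfrsf23 and Tnfrsf22 are known as decoys that bind TRAIL. Tnfrsf23 was measured at 119.2, 74.9 and 101.2 CPM in NaCl tumors and at 60.9, 70.1 and 79.3 CPM in H89 tumors. NaCl tumor 2 lay within the range of the H89 tumors, so that the groups overlapped. The log2 fold change was -0.49 (SE 0.17, adjusted p = 0.140 in edgeR), and the unadjusted call was lost without NaCl tumor 1, NaCl tumor 3, H89 tumor 1 or H89 tumor 2, with values from -0.65 to -0.33, and with total count scaling. Tnfrsf26 was measured at 22.4, 24.4 and 25.1 CPM in NaCl tumors and at 11.1, 20.3 and 20.9 CPM in H89 tumors. The H89 tumors were all lower, H89 tumor 1 by far the most, and the log2 fold change was -0.45 (SE 0.22, adjusted p = 0.249 in edgeR), which became -0.21 without H89 tumor 1.

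Tnfrsf22 was at 74.2 to 81.7 CPM in NaCl tumors and 75.7 to 85.6 CPM in H89 tumors, with a log2 fold change of 0.04 (SE 0.08). The estimated counts of these 3 neighbours were not whole numbers, so reads that fit more than 1 of them could be divided among them, and exons of Tnfrsf23 and Tnfrsf26 overlap E230032D23Rik on the opposite strand. Their sum was 201 ± 25.2 CPM in NaCl tumors and 168 ± 17.8 CPM in H89 tumors (SD, n = 3), a log2 ratio of -0.25 with an exact two-sided permutation p of 0.3. Tnfrsf21 (DR6), a death domain receptor of another branch, was at 9.93 to 11.1 CPM in NaCl tumors and 7.78 to 12.9 CPM in H89 tumors, on both sides of the NaCl tumors, with a log2 fold change of 0.02 (SE 0.19).

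Among TNF, the lymphotoxins and their receptors, 1 of 7 members tested, Tnfrsf14, was called (14.3%, against 25.0% of all genes). Tnfrsf14 (HVEM), a receptor for LIGHT and lymphotoxin alpha that also binds the inhibitory receptor BTLA, lies on chromosome 4 from 154921933 to 154928563 on the minus strand. It was measured at 0.360, 1.60 and 0.512 CPM in NaCl tumors and at 2.57, 2.95 and 4.69 CPM in H89 tumors, from 9.5 to 154.4 estimated counts. The groups did not overlap, though NaCl tumor 2 was well above the other NaCl tumors. The log2 fold change of 2.04 (SE 0.53, adjusted p = 0.0827 in edgeR) was the highest in the family and ran from 1.68 without NaCl tumor 1 to 2.96 without NaCl tumor 2. Its ligand Tnfsf14 (LIGHT) was at 1.02 to 1.44 CPM in NaCl tumors and 0.963 to 1.49 CPM in H89 tumors, with a log2 fold change of -0.10 (SE 0.28).

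Tnf, the founding inflammatory cytokine, lies on chromosome 17 from 35199381 to 35202007 on the minus strand, between Ltb and Lta. It was measured at 4.28, 5.75 and 4.02 CPM in NaCl tumors and at 6.46, 5.38 and 6.75 CPM in H89 tumors. NaCl tumor 2 lay above H89 tumor 2, and the log2 fold change was 0.40 (SE 0.19, adjusted p = 0.241 in edgeR). Its receptor with a death domain, Tnfrsf1a, was at 171.8, 159.9 and 151.1 CPM in NaCl tumors and at 154.1, 137.9 and 142.1 CPM in H89 tumors. Here H89 tumor 1 lay above NaCl tumor 3, and the log2 fold change was -0.15 (SE 0.09, adjusted p = 0.315 in edgeR). The second TNF receptor, Tnfrsf1b, which is found mainly on immune and endothelial cells, was at 103.2, 75.8 and 78.8 CPM in NaCl tumors and at 88.0, 87.2 and 103.4 CPM in H89 tumors. The highest value of each group was nearly the same, and the log2 fold change was 0.11 (SE 0.13, adjusted p = 0.635 in edgeR).

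Ltb, whose product joins lymphotoxin alpha on the surface of lymphocytes, was at 8.67, 6.12 and 3.15 CPM in NaCl tumors and at 12.0, 7.66 and 11.6 CPM in H89 tumors. H89 tumor 2 lay below NaCl tumor 1, and the log2 fold change of 0.80 (SE 0.35, adjusted p = 0.201 in edgeR) was just outside the unadjusted threshold. It was called without a filter, at a minimum of 5 CPM, by DESeq2, by limma with either pseudocount, with the replicate block and with total count scaling. It was also called without NaCl tumor 1 or H89 tumor 2. Ltb was not called with quantile normalization, with median ratio size factors, or without NaCl tumor 2, NaCl tumor 3, H89 tumor 1 or H89 tumor 3. Lta was near the filter in all tumors, at 0.183 to 0.684 CPM, with a log2 fold change of 0.37 (SE 0.46).

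**Figure D3:**
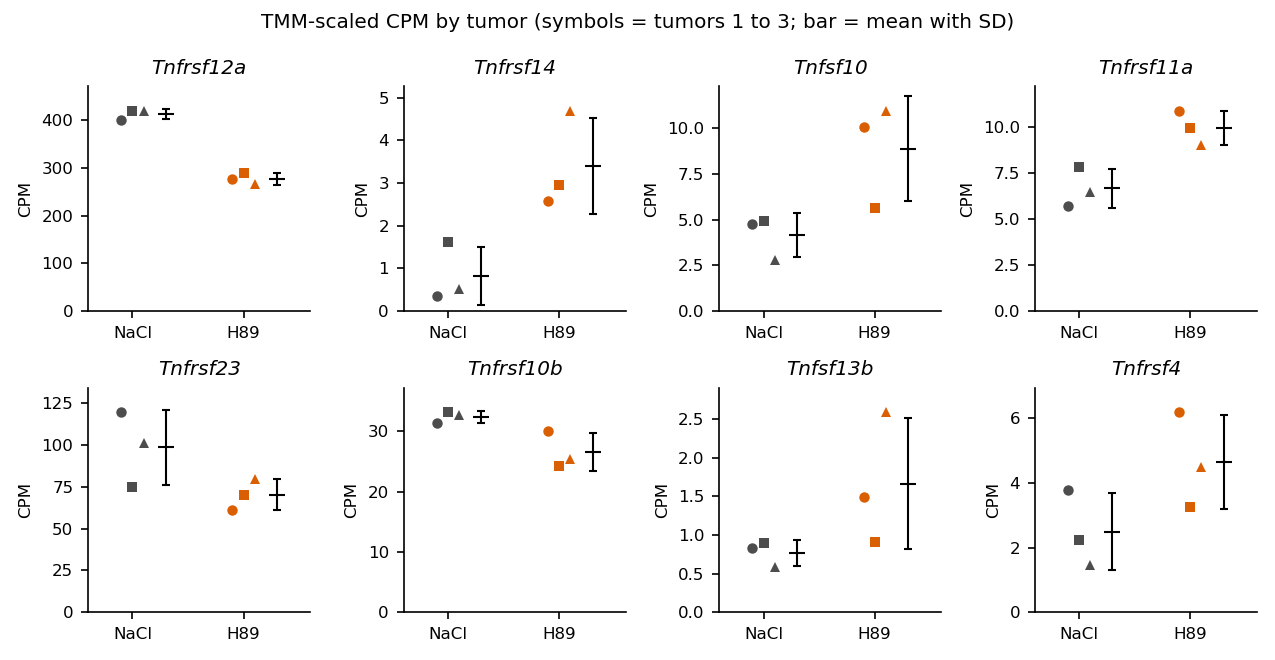
TMM-scaled CPM of the 8 members with an unadjusted p under 0.05 in each tumor (symbols for tumors 1 to 3), with the mean and SD of each group beside them and axes from 0. The groups overlap for Tnfrsf23 and Tnfrsf4 and not for the other 6 members.

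Of the T cell costimulation branch, 7 of 10 members were tested and 1, Tnfrsf4, was called (14.3%, against 25.0% of all genes). Tnfrsf4 (OX40), which sustains activated T cells and is abundant on regulatory T cells, lies on chromosome 4 from 156013843 to 156016612 on the plus strand, next to Tnfrsf18. Levels were 3.78, 2.24 and 1.46 CPM in NaCl tumors and 6.17, 3.25 and 4.50 CPM in H89 tumors. H89 tumor 2 lay below NaCl tumor 1, and the log2 fold change was 0.89 (SE 0.37, adjusted p = 0.189 in edgeR). The unadjusted call was lost without NaCl tumor 2, NaCl tumor 3, H89 tumor 1 or H89 tumor 3, with values from 0.62 to 1.32, and with quantile normalization.

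Tnfrsf18 (GITR), another receptor of activated and regulatory T cells, was at 1.13 to 2.59 CPM in NaCl tumors and 2.46 to 3.41 CPM in H89 tumors, with a log2 fold change of 0.71 (SE 0.32, adjusted p = 0.211 in edgeR). Its exons overlap Gm16008 on the opposite strand. Tnfrsf25 (DR3), the receptor of TL1A, was at 0.299 to 0.792 CPM in NaCl tumors and 0.608 to 1.21 CPM in H89 tumors, with a log2 fold change of 0.76 (SE 0.43). Tnfrsf8 (CD30) was at 0.607 to 0.973 CPM over all tumors, and its ligand Tnfsf8 at 0.634 to 1.61 CPM, with log2 fold changes of -0.24 (SE 0.29) and 0.33 (SE 0.40).

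Tnfrsf9 (CD137), a marker of recently activated T cells that other cell types can also express, led this branch at 30.9 CPM per kilobase, where Tnfrsf4 was at 3.46 and Tnfrsf18 at 2.05 CPM per kilobase. It was at 117.8, 36.9 and 56.1 CPM in NaCl tumors and at 57.0, 35.0 and 89.5 CPM in H89 tumors, with a log2 fold change of -0.22 (SE 0.45, adjusted p = 0.794 in edgeR). The spread within groups was wider than the difference between them. Its ligand Tnfsf9 was at 16.3 to 22.9 CPM over the 6 tumors, with a log2 fold change of -0.08 (SE 0.15), and its exons overlap Gm11110 on the opposite strand.

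Of the 9 T cell markers, 6 (66.7%, against 25.0% of all genes) were called at the unadjusted p, all of them higher, with adjusted p in edgeR of 0.101 or above, and the groups overlapped for each of the 9. Cd3g and Cd8a stayed called whichever tumor was left out, and the other 4 did not. The sum of the 9 was 37.5, 21 and 16.7 CPM in NaCl tumors and 58.3, 32.2 and 81.2 CPM in H89 tumors, with NaCl tumor 1 above H89 tumor 2. Regulatory T cell markers summed to 3.44 to 13.2 CPM in NaCl tumors and 10.7 to 12.5 CPM in H89 tumors, and markers of cytotoxic and NK cells to 15.4 to 90.2 CPM and 48.0 to 163 CPM. Per 100 CPM of T cell markers, Tnfrsf4 was at 9.82 ± 0.967 in NaCl tumors and 8.75 ± 2.78 in H89 tumors (SD, n = 3), a log2 ratio of -0.17. The same ratio was -0.37 for Tnfrsf18 and -0.28 for Ltb, with exact two-sided permutation p of 0.7, 0.3 and 0.5 for the 3 genes. For Tnfrsf4, the values were 10.1, 10.6 and 8.75 in NaCl tumors and 10.6, 10.1 and 5.55 in H89 tumors, so that H89 tumor 3 alone lay apart. For Tnfrsf9, the values per 100 CPM of T cell markers were 314, 176 and 335 in NaCl tumors and 97.7, 109 and 110 in H89 tumors. Its log2 ratio was -1.38, with an exact two-sided permutation p of 0.1. These ratios were added after the data were seen, and the part of T cell content in the CPM of these genes was not tested.

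**Figure D4:**
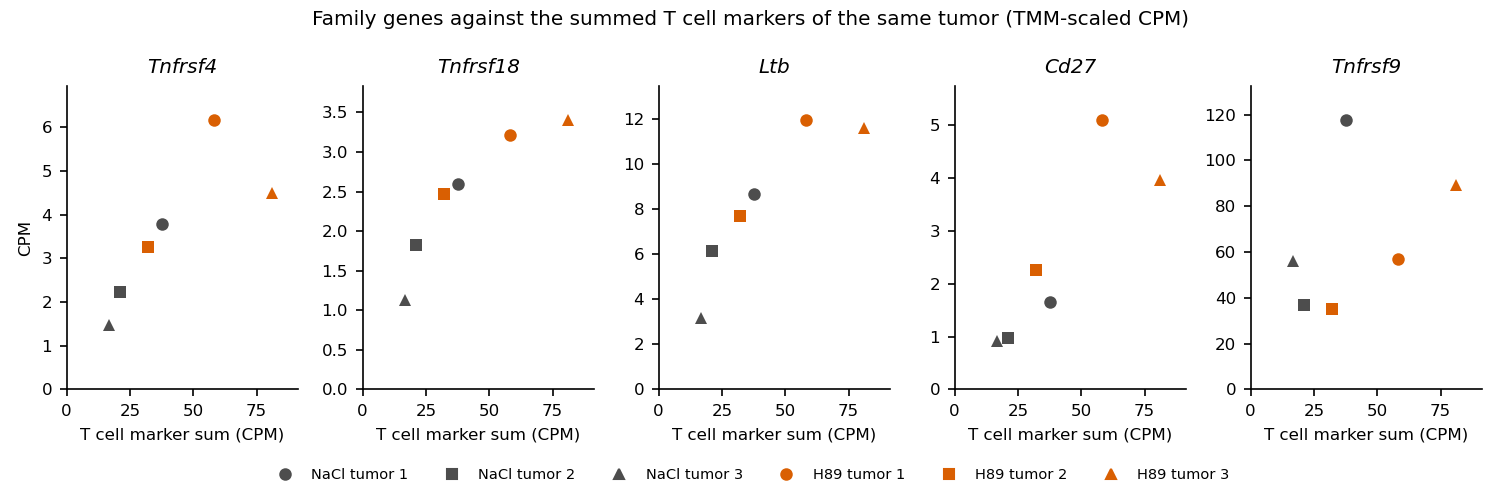
CPM of Tnfrsf4, Tnfrsf18, Ltb, Cd27 and Tnfrsf9 (y axes) against the summed CPM of 9 T cell markers of the same tumor (x axis), with NaCl tumors in grey, H89 tumors in orange and symbols for tumors 1 to 3. The marker sum reaches from 16.7 to 37.5 CPM in NaCl tumors and from 32.2 to 81.2 CPM in H89 tumors.

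In the BAFF and APRIL branch, 1 of 4 members tested, the ligand Tnfsf13b, was called (25.0%, as over all genes). Tnfsf13b (BAFF), a survival factor of B cells made by myeloid cells, was measured at 0.828, 0.895 and 0.585 CPM in NaCl tumors and at 1.50, 0.912 and 2.59 CPM in H89 tumors. H89 tumor 2 was barely above the highest NaCl tumor and H89 tumor 3 was far above it. The log2 fold change was 1.11 (SE 0.41, adjusted p = 0.154 in edgeR), and it became 0.64 without H89 tumor 3. The unadjusted call was lost without NaCl tumor 1, NaCl tumor 3 or H89 tumor 3, with quantile normalization and with the replicate number as a block.

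Tnfsf13 (APRIL) was at 1.94 to 2.82 CPM over the 6 tumors, with a log2 fold change of -0.09 (SE 0.23). The receptors Tnfrsf13b (TACI), at 3.78 to 6.78 CPM, and Tnfrsf17 (BCMA), at 1.06 to 1.50 CPM, had log2 fold changes of 0.25 (SE 0.22) and 0.13 (SE 0.25). Tnfrsf13c, the BAFF receptor of B cells, was below the filter, with 2.5 to 17 estimated counts per tumor. Markers of conventional dendritic cells summed to 13.0 to 15.4 CPM in NaCl tumors and 18.2 to 25.7 CPM in H89 tumors, with Flt3 and Cd209a below the filter. All 4 dendritic cell markers tested were called higher at the unadjusted p, against 13.1% of all genes, and none had an adjusted p under 0.05 in edgeR. The part of these cells in the values of Tnfsf13b, Tnfsf10, Tnfrsf11a and Tnfrsf14 was not tested.

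The 6 members below the filter were 4 ligands and 2 receptors. Beside Tnfsf11, Tnfrsf19 and Tnfrsf13c, these were Tnfsf4 (the ligand of OX40) with 1 to 14 counts, Tnfsf15 (TL1A) with 2.4 to 12 and Tnfsf18 (the ligand of GITR) with 0 to 4. The groups lay apart for 3 of the 6, higher in H89 tumors for Tnfrsf13c (3, 4.5 and 2.5 estimated counts against 17, 8.5 and 8) and Tnfsf4 and lower for Tnfsf18, at counts too low for the fit. The share of all genes below the filter whose groups lay apart was not counted, so this number has no background beside it. Without a filter, Tnfrsf13c was called at the unadjusted p in edgeR. The ligands of Tnfrsf4, Tnfrsf18, Tnfrsf25 and Tnfrsf11a were thus all below the filter, while the receptors themselves passed it.

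For 10 chosen pairs of a ligand and a receptor that were both tested, the changes were set side by side. Left out, among others, were Tnfsf10 with Tnfrsf23 (-0.49, called) or Tnfrsf22 (0.04, not called), and Lta with Tnfrsf14. TRAIL and its death receptor had called values on opposite sides of 0, at 1.10 and -0.28. For LIGHT and HVEM, the receptor alone was called, and the same held for TWEAK and Fn14. In the pair of BAFF and TACI, only the ligand was called. A difference between the changes of the 2 genes of a pair was not tested.

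**Figure D5:**
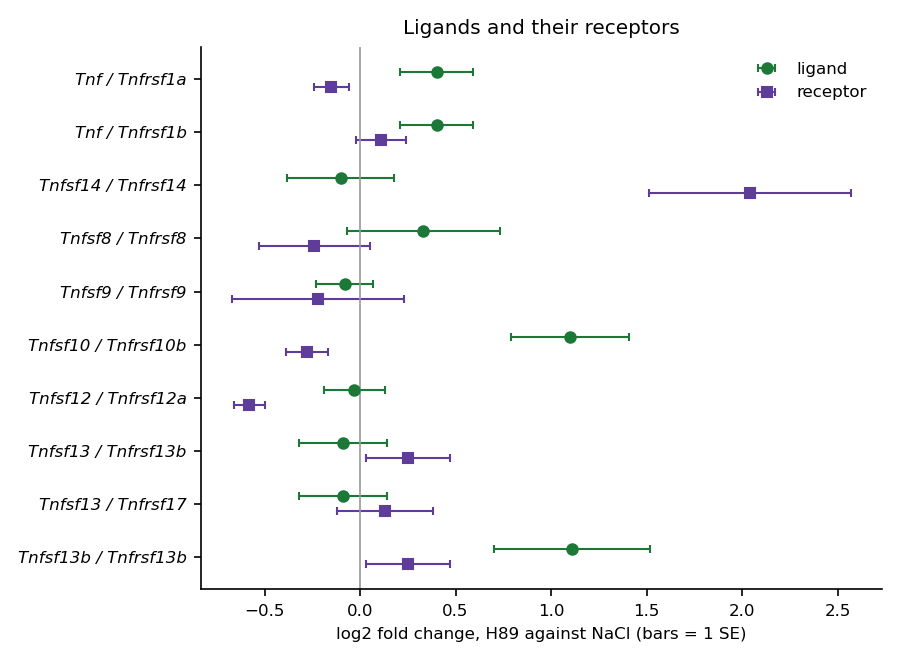
Log2 fold change of H89 against NaCl with bars of 1 SE (x axis) for the ligand (green circles) and the receptor (purple squares) of 10 chosen pairs. Tnfsf10 lies at 1.10 and Tnfrsf10b at -0.28, and Tnfrsf12a lies at -0.58 beside Tnfsf12 at -0.03.

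Family genes that carry other symbols were read from a separate list. Of the 8 receptors, 6 were tested. Cd27, a costimulatory receptor of T cells and NK cells, was at 1.66, 0.970 and 0.914 CPM in NaCl tumors and at 5.10, 2.25 and 3.96 CPM in H89 tumors, with a log2 fold change of 1.67 (SE 0.37, adjusted p = 0.0653 in edgeR). All H89 tumors were above all NaCl tumors, and per 100 CPM of T cell markers the log2 ratio was 0.51 with an exact two-sided permutation p of 0.2. Ltbr, the lymphotoxin beta receptor, was at 132.7 to 144.2 CPM in NaCl tumors and 105.1 to 131.1 CPM in H89 tumors, with a log2 fold change of -0.23 (SE 0.10, adjusted p = 0.197 in edgeR), and its unadjusted call was lost whichever tumor other than H89 tumor 1 was left out, and with quantile normalization or total count scaling. Eda2r and Cd40 had log2 fold changes of -0.37 (SE 0.18) and 0.36 (SE 0.21) and were not called. Of the 4 ligands, only Fasl passed the filter, at 0.402 to 1.66 CPM in NaCl tumors and 1.12 to 2.98 CPM in H89 tumors, with a log2 fold change of 0.95 (SE 0.54, adjusted p = 0.313 in edgeR).

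All 29 genes of receptor-proximal signaling were tested, and 4 were called higher and 2 lower at the unadjusted p (20.7%, against 25.0% of all genes), with a list median of 0.03 on the log2 scale. Birc2 and Birc3, the cIAP ubiquitin ligases that hold the TNF receptor complex in its NF-kB signaling state, passed the adjusted p. Birc2 rose from 19.4, 18.0 and 18.7 CPM in NaCl tumors to 25.4, 28.6 and 28.2 CPM in H89 tumors, with a log2 fold change of 0.55 (SE 0.10, adjusted p = 0.0443 in edgeR). Birc3 rose from 13.2, 16.0 and 13.2 CPM to 20.7, 23.0 and 26.7 CPM, with a log2 fold change of 0.74 (SE 0.14, adjusted p = 0.0488 in edgeR). For both, the groups lay apart, but the call at the adjusted p was lost whichever tumor was left out, with an adjusted p of 0.0667 to 0.147 for Birc2 and 0.0667 to 0.152 for Birc3. The other 4 genes called were Chuk at 0.33, Ikbkb at 0.23, Otulin at -0.24 and Traf1 at -0.36 on the log2 scale, named after their values were seen.

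Of the 11 NF-kB subunits and inhibitors, all tested, 2 were called higher and 3 lower (45.5%, against 25.0% of all genes), with a median of -0.09 on the log2 scale. Nfkbiz and Nfkbid, atypical nuclear inhibitors, had log2 fold changes of 0.71 (SE 0.18) and 0.72 (SE 0.24), while the subunits Rela and Relb were at -0.33 (SE 0.10) and -0.35 (SE 0.12). Their adjusted p in edgeR lay between 0.0803 and 0.135. Of 20 genes known to be induced by NF-kB, 19 were tested, and 5 were called higher and 3 lower (42.1%, against 25.0%), with a median of -0.20 on the log2 scale. Tnfaip2 and Bcl2l1 had log2 fold changes of -0.68 (SE 0.13) and -0.45 (SE 0.10), and the adhesion molecules Vcam1 and Icam1 of 0.48 (SE 0.12) and 0.52 (SE 0.14), with adjusted p in edgeR from 0.0523 to 0.0861. The list had called members on both sides.

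The 5 genes listed for shedding and its control, Adam17, Adam10, Rhbdf1, Rhbdf2 and Timp3, had unadjusted p in edgeR of 0.0824 to 0.981. Adam17, the protease that releases TNF and its receptors, was at 48.2 to 55.0 CPM in NaCl tumors and 50.1 to 72.0 CPM in H89 tumors, with a log2 fold change of 0.27 (SE 0.13).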

How the data were processed

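Whole CT26 tumors of 3 NaCl and 3 H89-treated mice were measured by RNA sequencing on BGISEQ-500, and each tumor's group was taken from the labels. The authors deposited 1 table of 6 tumors by 23557 genes of estimated counts, although it is called TPM: the totals of 27067349 to 31958793 and the whole values of many genes show that no scaling had been applied. The submitters' processing notes name kallisto, DESeq2 and GRCm38, without versions. The annotation used and whether strand was kept are not given in the sources used here.

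Estimated counts were rounded and tested in edgeR 4.0.16 (R 4.3.3; limma 3.58.1, DESeq2 1.42.0 as alternatives) by its quasi-likelihood functions (glmQLFit, glmQLFTest) after TMM scaling, with no covariate beside treatment, on 13118 genes with a mean of at least 0.5 CPM, with Benjamini-Hochberg adjustment over all of them. A member was called at an unadjusted p under 0.05, with the adjusted p given beside it. CPM were scaled by the TMM factors, SD are over 3 tumors, and SE are of the edgeR log2 fold change. The edgeR step was tested on simulated data. Members and lists were chosen with earlier results of these data known. Every member was to be named, and described in full where its unadjusted p was under 0.05 or its groups lay apart, as were Tnf, Tnfrsf1a, Tnfrsf1b and the ligand and receptor of highest level per length. Of pathway lists, genes with an adjusted p under 0.05, or else up to 4 with the smallest p, were named. Positions and lengths are those of GENCODE M21 on GRCm38, in which all 34 members were found, and promoters were matched by symbol for 27 members. For 16 members, estimated counts lay more than 0.01 from a whole number, so that reads shared with other genes could be divided. Each tumor is a separate mouse. Counting error was not separated from the spread between tumors, and it weighs most on the members of few counts. Scaling, filter, pseudocount, tool, replicate block and leaving out each tumor were varied. The total count scaling, the sum of 3 paralogs and the values per T cell marker were added after the data were seen.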

Additional observations from a re-analysis of the deposited data

How the results depend on the processing

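Of 117 refits of the 8 called members, 97 kept the direction and the unadjusted call, 20 lost the call and in none did the direction reverse. Tnfrsf12a, Tnfrsf14, Tnfsf10 and Tnfrsf11a kept an unadjusted p under 0.05 without each tumor in turn. The cause of the changes below was not tested. The number of members with an adjusted p under 0.05, 1 in the report, was 5 with DESeq2 (Tnfrsf11a, Tnfrsf12a, Tnfrsf14, Tnfrsf23 and Tnfsf10), 0 with quantile normalization, and 0 whichever tumor was left out. Over all genes, 208 were called at the adjusted p, 1392 by DESeq2, 80 after quantile normalization, and 0 to 12 without each tumor. Ligands called at the unadjusted p, 2 in the report, were 1 after quantile normalization, 4 with total count scaling and 1 to 3 without each tumor, with 1 without NaCl tumor 3 or H89 tumor 3. Receptors called, 6 in the report, were 3 to 8 without each tumor, with 3 without NaCl tumor 3. Quantile normalization called 3 members higher and 4 lower, against 5 and 3, and total count scaling, which moved the median of all genes to 0.076, called 8 higher and 1 lower, with 71.7% of all called genes higher against 52.3%. The median of ligands, 0.35, was 0.00 after quantile normalization, 0.15 with a pseudocount of 1 in limma, and 0.05 to 0.44 without each tumor, with the lowest values without H89 tumor 3 (0.05) and NaCl tumor 3 (0.16). That of receptors, 0.08, was -0.12 among genes of at least 5 CPM and -0.09 after quantile normalization.

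Deviations from the group mean correlated at 0.16, 0.06 and -0.02 between same-numbered tumors of the groups, and at -0.37 to 0.35 between differently numbered ones. With 3 tumors per group, these values cannot decide whether the numbers pair the tumors. With the replicate number as a block, 0 genes and 0 members had an adjusted p under 0.05 in edgeR, with 3750 genes at an unadjusted p under 0.05, among them 9 members. Signs turned for members that were not called: after quantile normalization, Lta was at -0.01, Tnfrsf11b at -0.12, Tnfrsf17 at -0.16 and Tnfrsf21 at -0.11. Tnfrsf21 was at -0.01 in limma with either pseudocount and -0.01 with the block, and Tnfsf12 at 0.04 with total count scaling. Without each tumor in turn, values ran from -0.01 to 0.50 for Lta, -0.09 to 0.52 for Tnfrsf11b, -0.15 to 0.19 for Tnfrsf21, -0.62 to 0.38 for Tnfrsf9, -0.16 to 0.11 for Tnfsf12, -0.24 to 0.01 for Tnfsf13, -0.31 to 0.02 for Tnfsf14, -0.05 to 0.70 for Tnfsf8 and -0.21 to 0.03 for Tnfsf9. The values per T cell marker are not among the 117 refits counted above. By that measure the called member Tnfrsf4 turned sign, to -0.17, and Tnfrsf18 was at -0.37, Ltb at -0.28 and Tnfrsf9 at -1.38.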

Other observations

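Within the NaCl group, tumor 3 held the lowest value of 8 of the 10 ligands tested, among them Tnf, Ltb, Tnfsf10 and Tnfsf13b, and tumor 1 the highest value of 11 of the 18 receptors. NaCl tumor 3 also had the lowest sums of T cell markers, at 16.7 CPM, and of cytotoxic and NK cell markers, at 15.4 CPM. The part of these cells in the ligand values was not tested. Within the H89 group, tumor 2 was the lowest for 5 of the 10 ligands and tumor 3 the highest for 6 of them. The same counts over all genes were not made, so the numbers for ligands and receptors have no background beside them. Among markers of plasmacytoid dendritic cells, Siglech, Ccr9 and Klk1 had log2 fold changes of 1.13, 1.43 and 1.54, whereas Cox6a2 was at -1.87 (adjusted p = 0.0407 in edgeR).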
